A study of Mus musculus with 4 samples.

Results

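The salivary gland spots of the E16.5 mouse embryo section are 60 of the 3588 spots kept in that section and of the 7435 kept in all 4 sections. They were chosen by 4 genes of salivary secretion, Smgc, Bpifa2, Dcpp3 and Pip: each kept spot (over tissue, with at least 500 unique molecular identifiers, UMIs, which count captured RNA molecules) was scored by the mean over these genes of log(1 + UMIs per 10000), and the 60 highest spots were taken. The 4 genes therefore chose the spots. They are left out of the counts of genes in every comparison, and any value of theirs below is a description. The study placed frozen sections of wild-type (WT), untreated mouse tissue, 8 µm thick, on Visium slides, whose spots capture the RNA of the tissue above them. It holds 1 section of an embryo at E13.5, 1 of an embryo at E16.5 and 2 of the dissected P0 esophagus, and the series title gives the esophagus and the stem cell marker Lgr5 as its subject. The salivary gland lies beside that subject, and the rule was applied to the E16.5 section alone. With 1 section at this stage there is no replicate, so values carry exact Poisson or Clopper-Pearson 95% intervals, which cover counting error only, and no test.

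Salivary glands form from oral epithelium that buds into mesenchyme and branches into ducts ending in clusters of secretory cells, the acini. Acinar cells pass salt and water into the duct through ion channels and aquaporins and release granules of mucins, antimicrobial proteins and protease inhibitors, while ducts change the ions and myoepithelial cells squeeze the acini. Fibroblast growth factors of the mesenchyme drive the branching, and a parasympathetic ganglion grows along with the epithelium. Before birth the mouse gland already makes a set of secretory proteins, Smgc among them, that differs from the adult set.

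The spots lay together at 1 margin of the section. A group of 57 touching spots held nearly all of them, a further pair touched each other, and 1 stood alone. They spanned grid rows 66 to 73 and grid columns 59 to 94, and 31 of the 60 had at least 1 of their 6 neighbouring positions off the tissue. UMIs per spot ranged from 4804 to 53942 with a median of 29950.5, against a median of 26567.5 in the 3528 other kept spots. The spots together gave 1861741 UMIs, so that 1 UMI is worth 0.537 CPM, UMIs per 1000000 UMIs of the summed spots. Mitochondrial transcripts made up 1.97% of their UMIs and 4.38% of those of the other spots.

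The threshold cut through a gradient. The highest score was 4.39, members 59 and 60 scored 2.71 and 2.70, and the next spots outside scored 2.63 and 2.60. The 9 spots ranked 61 to 69 all touched a member, and the score had dropped to 1.88 at spot 69 and 0.877 at spot 100. The median score of all other spots was 0.134. The number of 60 was thus set by the rule and not by a break in the scores, which fall on into touching spots outside it.

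**Figure D1:**
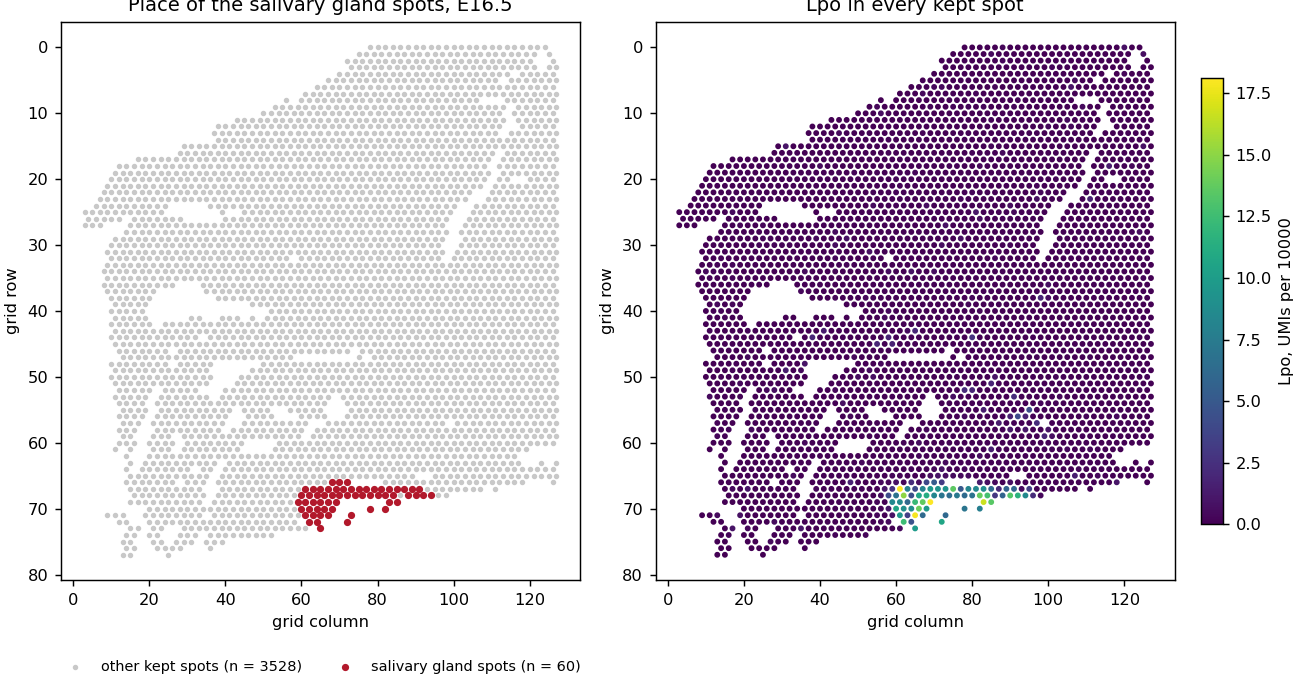
Kept spots of the E16.5 section by grid column and grid row. Left, the 60 salivary gland spots in red among 3528 other kept spots in grey; right, the same spots coloured by Lpo in UMIs per 10000, a gene the rule did not use. The red spots form a band at grid columns 59 to 94, and the bright spots on the right lie in the same band.

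The rule gene Smgc shares its locus with the mucin gene Muc19, and Dcpp3 is 1 of 3 neighbouring copies on chromosome 17. The Dcpp genes, which encode demilune cell and parotid proteins, were counted very unequally in the same spots. Over the 60 spots Dcpp3 gave 1667 UMIs and Dcpp1 gave 1354, but Dcpp2, whose RefSeq gene lies between theirs, gave 3. The bases upstream of the genes are shown here because they barely differ while the counts do. The stretch before Dcpp3 is chr17:23917209-23917418 and the matching stretch before Dcpp2 is chr17:23898472-23898680 (RefSeq promoters of GRCm38.p6, plus strand), and capitals mark the aligned bases at which the pair differs.
Dcpp3: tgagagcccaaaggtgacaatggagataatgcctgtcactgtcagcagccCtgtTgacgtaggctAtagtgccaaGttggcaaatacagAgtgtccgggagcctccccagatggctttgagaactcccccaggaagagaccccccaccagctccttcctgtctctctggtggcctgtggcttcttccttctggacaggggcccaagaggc
Dcpp2: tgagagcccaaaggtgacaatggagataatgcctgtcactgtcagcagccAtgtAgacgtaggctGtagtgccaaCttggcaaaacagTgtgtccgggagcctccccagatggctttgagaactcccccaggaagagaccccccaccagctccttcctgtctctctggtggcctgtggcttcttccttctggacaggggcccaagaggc
These stretches were identical at 204 of 209 aligned bases (97.6%), with 1 base present in Dcpp3 alone. The matching stretch at Dcpp1, part of which lies inside its RefSeq gene interval, was identical to that of Dcpp3 at 207 of 211 bases (98.1%). Copies of a gene can share reads or lose them in counting. The transcripts of Dcpp1, Dcpp2 and Dcpp3 were not compared here, so the split of UMIs over them is uncertain, and the part of counting in the low Dcpp2 value was not tested.

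Of 14345 genes with at least 200 UMIs over the kept spots, 833 were at least 2-fold higher in the salivary gland spots than in all other kept spots (5.81% of the genes) and 3133 were at least 2-fold lower (21.8%), on log2 ratios of CPM with a pseudocount of 1. The rule chose the spots in this same contrast, so these counts and the levels that follow describe the spots and support nothing. The median log2 ratio over all 14345 genes was -0.14. Of the 25 genes with the highest ratio, 10 reached the 200 UMIs only through the salivary gland spots themselves and had to differ. In spots, which are small pieces of tissue, fewer cells of a type and less RNA per cell cannot be told apart.

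Secretory products led the list. Lpo (chr11:87806428-87826114, GRCm38.p6), which encodes the antimicrobial enzyme lactoperoxidase, stood at 898 CPM (interval 855 to 942), against 3.86 (3.49 to 4.25) elsewhere. Its level per spot was at lowest 2.11, at the median 8.53 and at highest 18.1 UMIs per 10000. Every salivary gland spot held it, and 12 of the 3528 other spots exceeded the lowest of them. Dcpp1 stood at 727 CPM (689 to 767) against 2.97 (2.65 to 3.32), with 2.21, 6.86 and 19.7 UMIs per 10000 in the lowest, median and highest spot. The groups overlapped in 8 other spots.

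Wfdc18, a small protein with the disulfide core of whey acidic proteins, reached 2354 CPM (2285 to 2425) against 13.2 (12.5 to 13.9) elsewhere. Per spot it ran from 7.20 through a median of 22.9 to 52.0 UMIs per 10000. Its relative Wfdc12 stood at 68.2 CPM (56.9 to 81.2) against 0.712 (0.559 to 0.894) and was seen in 43 of the 60 spots. A2ml1, a protease inhibitor of the alpha-2-macroglobulin family, stood at 541 CPM (508 to 575) against 5.39 (4.95 to 5.85). All 60 salivary gland spots held A2ml1, but 213 other spots exceeded the lowest of them.

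Mucins were present as well. Muc19, a gel-forming mucin of mucous salivary cells, stood at 378 CPM (350.2 to 407) against 2.03 (1.76 to 2.32), with 0.760, 3.08 and 13.3 UMIs per 10000 in the lowest, median and highest spot. RefSeq gives Muc19 as another name of the rule gene Smgc (chr15:91838328-91861435), so its level is not independent of the rule. Prol1, which encodes the submandibular mucin also called Muc10, stood at 115 CPM (101 to 132) against 0.442 (0.324 to 0.590) and was seen in 47 of the 60 spots. Muc5b, the mucin of airway glands, gave 2 UMIs in all 60 spots, and Muc16 gave 0.

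Further products of saliva were scarce but concentrated in the same spots. Scgb2b27, a secretoglobin, gave 74 UMIs in the 60 spots and 12 in the 3528 others. Smr3a, a submandibular androgen-regulated protein, gave 42 and 14, and the mucin-like Mucl2 gave 34 and 29. The proline-rich protein gene Prb1 gave 23 and 2, its relative Prh1 gave 18 and 7, the cystatin Cst10 gave 15 and 3, and Bpifb2 gave 16 and 3. The salivary carbonic anhydrase Car6 gave 21 UMIs and 24. Some other products of the same list were at or near 0: Amy1, the salivary amylase, gave 0 UMIs, which allows up to 1.61 CPM (3 counts), Lyz1 gave 0, Pigr 1 and the kallikrein Klk1 5.

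The list of salivary secretory products had 27 genes in the table, of which 11 had 200 UMIs, 2 of them only through the salivary gland spots. Of the 11, 7 were at least 2-fold higher than in all other spots and 4 at least 2-fold lower (Amy1, Lyz1, Ltf and Cst3). Over all genes 5.81% were higher and 21.8% lower. The median log2 ratio of the 11 was 5.34 against -0.14 over all genes.

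**Figure D2:**
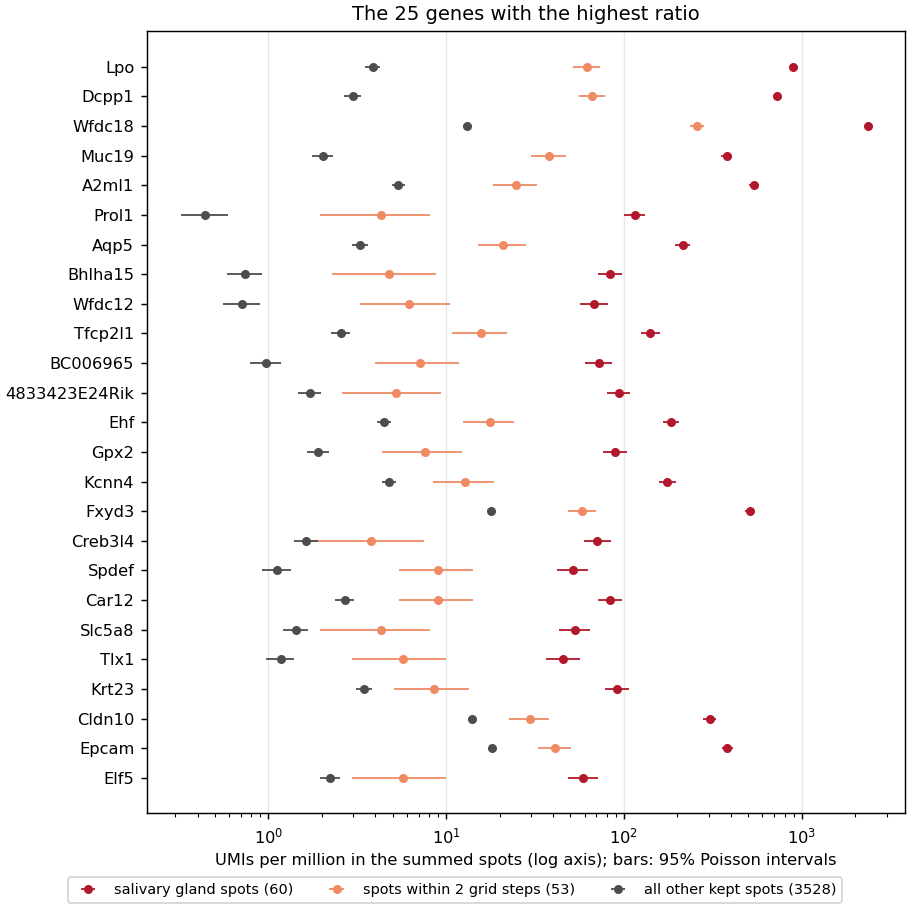
Levels of the 25 genes with the highest ratio, in CPM on a log axis, summed over the 60 salivary gland spots (red), the 53 kept spots within 2 grid steps of them (orange) and all 3528 other kept spots, the 53 included (grey); bars are 95% Poisson intervals. For each gene the red point lies to the right, the orange point in between and the grey point to the left, as for Lpo at 898, 61.7 and 3.86.

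Genes of fluid secretion followed. Aqp5, the water channel of the acinar cell surface (chr15:99591028-99594829, GRCm38.p6), stood at 214 CPM (194 to 236) against 3.28 (2.94 to 3.65). It was seen in 58 of 60 salivary gland spots and in 6.69% of the others. With every spot thinned to 10000 UMIs the shares were 81.0% of 58 spots and 2.92% of 3080. Kcnn4, the calcium-activated potassium channel that drives chloride out of acinar cells, stood at 176 CPM (157 to 196) against 4.79 (4.38 to 5.23). The chloride channel Ano1 stood at 102 (88.1 to 118) against 13.6 (12.9 to 14.4), and the chloride importer Slc12a2 at 139 (122 to 157) against 36.7 (35.6 to 37.9). Fxyd3, a regulator of the sodium pump, stood at 511 (479 to 545) against 17.8 (17.0 to 18.6). Other epithelium held Fxyd3 too, at 290.0 CPM in the spots high in Krt13 and Krt4 described below.

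The receptors through which nerves start secretion had few UMIs, with levels above those elsewhere. The muscarinic receptor Chrm1 gave 14 UMIs, or 7.52 CPM (4.11 to 12.6), against 0.510 (0.382 to 0.667) elsewhere, and Chrm3 likewise gave 14 UMIs, against 2.05 CPM (1.78 to 2.34). Of 17 measured genes of acinar fluid and ion transport, 8 were at least 2-fold higher (5.81% of all genes) and 2 lower (21.8%). Their median log2 ratio was 0.94. The lower pair were Kcnma1, a potassium channel with a log2 ratio of -1.71, and Slc4a4, a bicarbonate transporter at -1.74.

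Among 15 measured genes of mucous granules and mucin glycosylation, 6 were at least 2-fold higher (5.81% of all genes) and 3 lower (21.8%). Their median was 0.70, and 1 reached 200 UMIs only through the salivary gland spots. Spdef, an Ets factor of mucous cells, had a log2 ratio of 4.63, and the enzymes that start mucin O-glycans Galnt12, Galnt7 and Galnt3 had ratios of 3.37, 2.52 and 2.58. St6galnac1, which caps such glycans with sialic acid, gave 41 UMIs in the 60 spots and 10 elsewhere. The lower genes were Muc5b, Muc16 and Muc1.

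The machinery of the endoplasmic reticulum differed less. Of 29 measured genes of the secretory pathway, 9 were at least 2-fold higher (5.81% of all genes) and 0 lower (21.8%). Their median log2 ratio was 0.62. The signal peptidase subunit Sec11c stood at 233 CPM (211 to 256) against 60.7 (59.2 to 62.2), and the translocon subunit Sec61b at 849 (808 to 892) against 278 (275 to 281). Xbp1, the transcription factor that expands the reticulum, stood at 163 (145 to 182) against 69.4 (67.8 to 71.0). Derl3, which helps clear misfolded proteins, gave 18 UMIs and had too few for the count.

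Transcription factors of salivary epithelium were largely high. Bhlha15, also called Mist1, which organizes secretory granules in serous cells, stood at 83.8 CPM (71.2 to 98.0) against 0.741 (0.584 to 0.926) and was seen in 55 of 60 spots. Tfcp2l1, a factor of duct epithelium, stood at 141 (124 to 159) against 2.56 (2.26 to 2.89). The Ets factors Ehf and Elf5 had log2 ratios of 5.08 and 4.22. Sox10, a factor of gland buds and of glia, stood at 58.5 (48.1 to 70.6) against 7.76 (7.24 to 8.32). Pitx1, Barx2, Foxc1 and Sox9 had log2 ratios of 3.85, 3.36, 2.79 and 1.48.

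Of 25 measured factors, 18 were at least 2-fold higher (5.81% of all genes) and 2 lower (21.8%), Eya1 among the lower. Their median was 2.13, and 1 reached 200 UMIs only through the salivary gland spots. Ascl3 and Nkx2-3, factors of later duct and mucous cells, gave 0 UMIs, and Foxi1 gave 1. Tlx1, a homeobox gene better known from the spleen, was among the 25 highest genes at 45.7 CPM (36.5 to 56.5) against 1.17 (0.974 to 1.40).

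General epithelial and duct genes were high as well: 24 of 29 measured genes were at least 2-fold higher (5.81% of all genes) and 1 lower (21.8%). Their median log2 ratio was 2.10. Epcam, an adhesion protein of simple epithelia, stood at 382 CPM (354 to 411) against 18.1 (17.3 to 18.9), and the tight junction gene Cldn10 at 304 (279 to 330) against 13.9 (13.2 to 14.6). The simple keratins Krt8 and Krt18 had ratios of 2.42 and 3.46. Krt19, a duct keratin, stood at 38.7 CPM (30.3 to 48.7) against 58.2 (56.7 to 59.7), and Krt15, a basal keratin, was the lower gene, with a log2 ratio of -1.65. Of the remaining genes named among the 25 highest, Gpx2, Krt23, Car12, Slc5a8, Creb3l4, BC006965 and 4833423E24Rik had log2 ratios from 4.37 to 5.21.

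Myoepithelial and basal genes gave a mixed picture. Of 15 measured genes, 7 were at least 2-fold higher (5.81% of all genes) and 2 lower (21.8%), with a median of 0.10. The basal keratin Krt14 stood at 91.8 CPM (78.6 to 107) against 30.1 (29.0 to 31.1), whereas Krt5 stood at 22.0 (15.8 to 29.9) against 40.4 (39.2 to 41.6). The contractile genes Acta2 and Cnn1 had log2 ratios of 0.10 and -0.50, and Oxtr, the oxytocin receptor of mature myoepithelium, gave 0 UMIs.

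Of 31 measured branching signals, 9 were at least 2-fold higher and 6 lower, with a median of 0.49. Over all genes 5.81% were higher and 21.8% lower. The ligands Fgf1 and Fgf10 had log2 ratios of 2.40 and 1.97, and the ligands Nrg1 and Egf of the ErbB receptors 1.97 and 1.91. Targets of FGF signalling followed, with Dusp6 at 1.77 and Spry1 at 1.38. The FGF receptors Fgfr1 and Fgfr2 had ratios of 0.34 and 0.37. The lower genes were Shh, at 0 UMIs in the 60 spots, its targets Ptch1 and Gli1 at -1.38 and -1.41, Bmp4 at -1.88, Wnt5a at -2.66 and Hbegf at -1.27.

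Nerve genes were mostly low against all other spots, which span the rest of the embryo section. Of 20 measured genes of the parasympathetic ganglion and glia, 2 were at least 2-fold higher (5.81% of all genes) and 11 lower (21.8%). Their median was -1.33. The higher ones were Nrtn, the trophic factor by which the gland keeps its parasympathetic nerves, at 65.0 CPM (53.9 to 77.7) against 20.4 (19.5 to 21.3), and the neuregulin receptor Erbb3, at 31.7 CPM against 10.6. The Nrtn receptor Gfra2 had a ratio of 0.61. The neuronal genes Stmn2, Tubb2b and Uchl1 were among the 5 genes with the lowest ratio, at -4.20, -3.93 and -3.90, together with the cardiac troponin Tnnt2 at -3.79 and the prostaglandin D synthase Ptgds at -3.72. The acetylcholine enzyme Chat gave 0 UMIs and the peptide Vip 6. Against the 53 spots within 2 grid steps, 6 of the 20 genes were at least 2-fold higher (14.4% of all genes) and 1 lower (8.12%). Their median there was 0.24, against 0.26 over all genes, and the list summed to 261 CPM in the gland and 146 beside it.

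The other tissues that the spots could hold were present at levels below or near those elsewhere. Proliferation genes were the exception, with 9 of 10 at least 2-fold higher and a median of 1.24, and Mki67 stood at 229 CPM (208 to 252) against 83.1 (81.3 to 84.8). Against the spots high in Krt13 and Krt4 and the distal lung spots, both described below, 1 of the 10 was at least 2-fold higher each. Over all genes 5.85% and 9.26% were higher there. The medians of the 10 were 0.75 and 0.74, against -0.17 and -0.12 over all genes. Against all other spots, of 16 genes of connective tissue 0 were at least 2-fold higher and 2 lower, with a median of -0.35. Of 10 endothelial genes 0 were higher and 1 lower, with a median of -0.12. Of 9 genes of immune cells 0 were higher and 3 lower, with a median of -0.80. Over all genes 5.81% were higher and 21.8% lower, so these small counts say nothing particular about connective tissue, endothelium or immune cells. Cxcl13, a chemokine that attracts B cells, gave 44 UMIs in the 60 spots and 145 elsewhere, too few for the count.

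Genes of blood (8 of 8 at least 2-fold lower), skeletal muscle (9 of 10), cartilage and bone (8 of 10) and brown fat (2 of 6) were at least 2-fold higher in 0 cases. Over all genes 21.8% were lower and 5.81% higher. The summed level of the skeletal muscle list ranged over the 60 spots from 1327 through a median of 3271 to 20419 CPM, and that of the brown fat list from 142 through 1260 to 11960. These tissues therefore entered the spots to very different extents, and their part in the differences was not tested.

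Markers of other glands and epithelia were counted too, in the contrast that chose the spots, where 21.8% of all genes were lower. Of 6 measured nasal and airway genes 6 were at least 2-fold lower, with a summed level of 26.3 CPM against 659 elsewhere, and Scgb1a1, Scgb3a1 and Foxj1 gave 1, 1 and 2 UMIs. Of 8 lung genes 6 were lower and 1 higher, the higher being Etv5, which the list of salivary factors also holds. Of 12 epidermal and squamous genes 11 were lower, and of 7 thymus and thyroid genes 4 were lower and 0 higher. The tongue and taste gland list, the lacrimal and Harderian list and the pancreas and stomach list had 1 measured gene each, of which 1 (Pax6, of the lacrimal list) was lower, and summed to 3.22, 0.537 and 9.13 CPM against 4.81, 2.94 and 6.94 elsewhere. Of 2 measured liver genes 1 was lower, with a summed level of 11.8 CPM against 9.61 elsewhere. The salivary secretory list summed to 4980 CPM against 678. That sum holds Dcpp1 (727 CPM), a copy near the rule gene Dcpp3, and Muc19 (378), which shares the locus of Smgc. In the spots within 2 grid steps the nasal and airway list summed to 26.1 CPM, near its 26.3 in the gland. These sums therefore describe the spots and do not test the label.

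**Figure D3:**
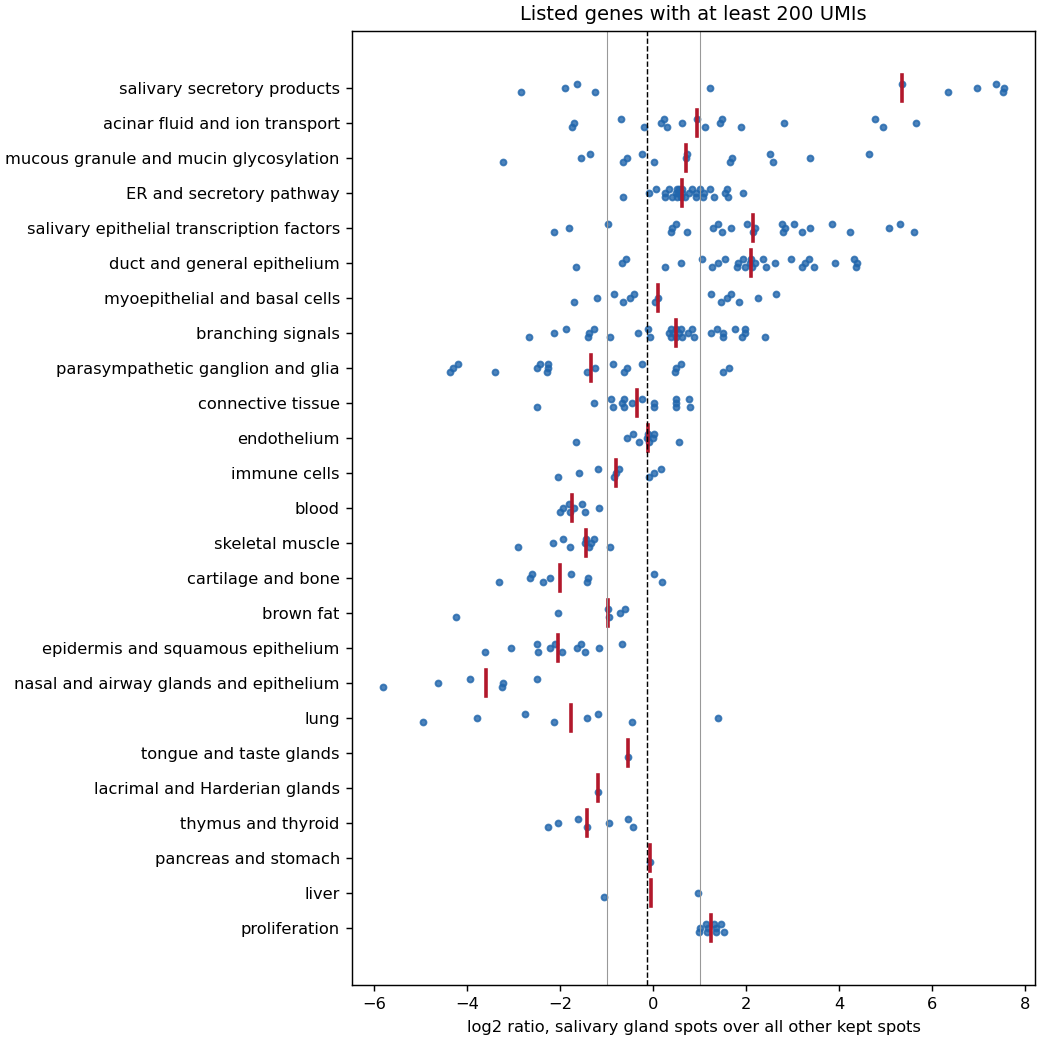
Log2 ratio of each listed gene with at least 200 UMIs, salivary gland spots over all other kept spots, for 25 gene lists. Each blue point is a gene, red bars are list medians, the dashed line is the median of all 14345 genes at -0.14 and grey lines mark 2-fold. Secretory products, transcription factors, epithelial and proliferation genes lie mostly to the right, and airway, lung, cartilage and blood genes to the left.

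Lgr5, the gene in the series title, marks stem cells of several epithelia. It gave 0 UMIs in the 60 salivary gland spots, which allows up to 1.61 CPM (3 counts), and 395 UMIs in the other spots, or 3.80 CPM (3.43 to 4.19). The exact upper bound for the salivary gland spots was 1.98. The spots within 2 grid steps held 1 UMI.

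The tissue around the gland differed in muscle and fat. Against the 53 kept spots within 2 grid steps, 2065 of the 14345 genes were at least 2-fold higher (14.4%) and 1165 at least 2-fold lower (8.12%), with a median log2 ratio over all genes of 0.26, or 0.11 with TMM scaling factors (edgeR), so ratios here sit on a shifted zero. The higher genes numbered 919 with the 30 highest spots in place of the 60, and 570 with the 100 highest. The skeletal muscle list summed to 40330 CPM there against 4611 in the salivary gland spots and the brown fat list to 7481 against 2103. All 10 muscle genes and all 6 fat genes were at least 2-fold lower in the salivary gland spots than beside them. The part of this difference in composition in the ratios was not tested.

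The 10 genes with the highest ratio over the neighbouring spots had log2 ratios from 3.73 to 4.46. They were Prol1, A2ml1, Pax9, Chmp4c, 4833423E24Rik, Ppp1r1b, Creb3l4, Bhlha15, Lpo and Pglyrp1. Outside the salivary gland spots Prol1 gave 46 UMIs, Bhlha15 77, Creb3l4 170 and 4833423E24Rik 178. These genes reached the 200 UMIs only through the salivary gland spots, so the filter itself favoured a high ratio for them. Pax9, a factor of pharyngeal and oral epithelium, stood at 44.0 CPM (35.0 to 54.7) against 1.42 (0.294 to 4.16, from 3 UMIs) beside the gland. In the spots high in Krt13 and Krt4, described below, Pax9 stood higher than in the gland, at 65.1 (51.7 to 80.9). Pglyrp1, an antibacterial protein that binds peptidoglycan, stood at 227 (206 to 250) against 16.2. Duct and general epithelial genes were at least 2-fold higher in 26 of 29 cases, transcription factors in 21 of 25 and fluid transport genes in 12 of 17. Over all genes 14.4% were higher than in the neighbouring spots, with a median log2 ratio of 0.26.

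Levels fell within a few steps of the gland. Lpo went from 898 CPM in the salivary gland spots to 110.5 in the 24 spots touching them, 22.3 in the 29 spots at 2 steps and 3.25 in the 108 spots at 3 to 5 steps. Wfdc18 went from 2354 to 495, 66.2 and 17.9, and Aqp5 from 214 to 41.4, 4.30 and 1.35. Bhlha15 went from 83.8 to 9.56 at 1 step, with 1 UMI in all at 2 steps. Epcam, which other epithelia share, went from 382 to 80.7, 8.59 and 6.50 and stood at 49.8 at 11 to 20 steps. The muscle actin Acta1 ran the other way, from 1453 to 9089, 18265 and 20724. The touching spots thus held gland transcripts and muscle transcripts together.

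**Figure D4:**
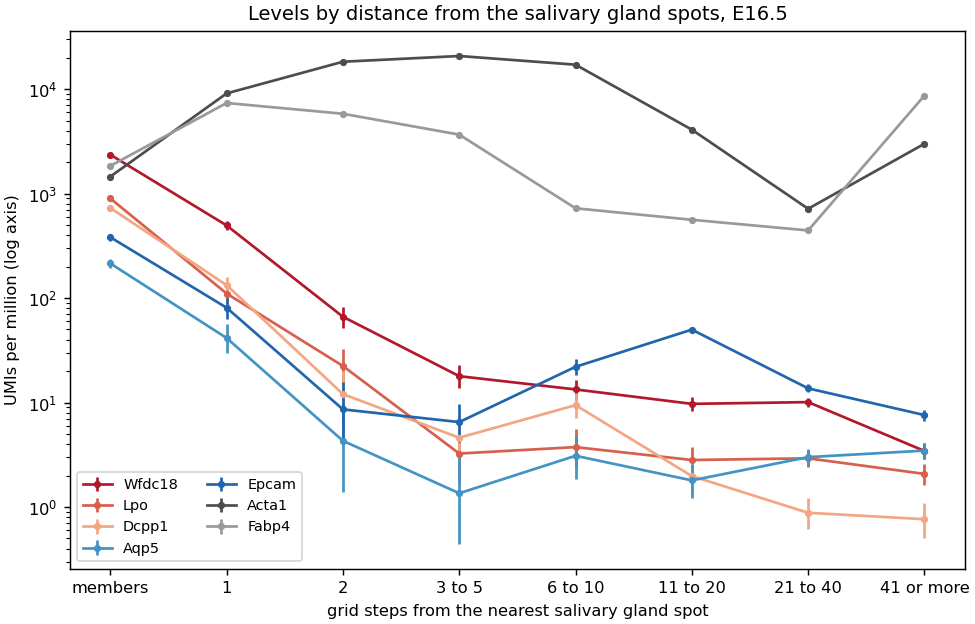
Level of 7 genes in CPM (log axis) by grid steps from the nearest salivary gland spot, summed over all kept spots of each class, with 95% Poisson intervals. The gland genes Wfdc18, Lpo, Dcpp1 and Aqp5 fall from the first class to 3 to 5 steps, for Lpo from 898 to 3.25, while the muscle gene Acta1 rises from 1453 to 20724 and the fat gene Fabp4 is highest in the spots at 1 step and at 41 or more.

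The lining of the mouth and esophagus was set beside the gland. Against the 60 spots with the highest Krt13 and Krt4, keratins of the oral and esophageal lining, 839 of 14345 genes were at least 2-fold higher (5.85%) and 2435 at least 2-fold lower (17.0%), with a median log2 ratio of -0.17. Duct and general epithelial genes were higher in 4 of 29 cases and lower in 12, with a median of -0.31. The basal keratins Krt15 and Krt5 were far lower in the gland, Krt15 at 60.2 CPM in the gland against 5551 and Krt5 at 22.0 against 749. Secretory products were higher in 7 of 11 cases, transcription factors in 12 of 25 and lower in 8, and fluid transport genes higher in 6 of 17. Mucous granule and glycosylation genes were higher in 5 of 15 cases and lower in 5, and secretory pathway genes higher in 5 of 29. Aqp5 gave 0 UMIs in the lining spots, at least 88.9-fold below the gland (3 counts over those spots). Prol1 also gave 0, at least 47.9-fold below. Ehf and Krt23, in contrast, stood at 184 and 91.3 CPM in the gland and at 81.9 and 57.8 in the lining, and Pitx1 at 142 and 238.

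Against the 60 distal lung spots, the highest in Sftpc, Sftpb and Napsa, 1329 of 14345 genes were at least 2-fold higher (9.26%) and 2155 at least 2-fold lower (15.0%), with a median of -0.12. The lung also branches and secretes, and several gland genes stood at like levels there. Elf5 stood at 59.1 CPM in the gland and 50.8 in the lung spots, Ano1 at 102 and 95.6, Slc12a2 at 139 and 135, and Wfdc2 at 349 and 349. Aqp5 was just past 2-fold, at 214 and 106. Other genes stood far lower in the lung spots. Kcnn4 stood at 176 and 3.05, Pitx1 at 142 and 1.02, Ehf at 184 and 2.03 and Lpo at 898 and 2.03. Bhlha15, at 83.8 in the gland, gave 0 UMIs in the lung spots, at least 27.5-fold below (3 counts over those spots). Of the lists, secretory products were higher in 6 of 11 cases, transcription factors in 17 of 25, duct and general epithelial genes in 13 of 29 and branching signals in 8 of 31, with 7 lower. Mucous granule and glycosylation genes were higher in 8 of 15 cases, but their list summed to 494 CPM in the lung spots and 410 in the gland. Secretory pathway genes were higher in 6 of 29 cases.

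The 60 spots were not uniform. The variance over spots, relative to that expected from counting alone at each spot's depth, was 10.9 for Wfdc18, 5.79 for Dcpp1, 5.19 for Muc19, 4.81 for Lpo, 4.53 for A2ml1 and 4.52 for Prol1. It was 4.38 for the neuronal gene Uchl1 and 3.62 for Tfcp2l1. It was 1.76 for Aqp5, 1.71 for the secretory gene Wfdc12, 1.21 for Cldn10, 1.11 for Bhlha15 and 0.896 for Tlx1, but abundant genes show any given spread more clearly than rare ones. Over the 60 spots, which share 1 library and were selected on the rule genes, Lpo had a Spearman correlation of 0.60 with Aqp5 and 0.49 with Dcpp1. Wfdc18 had one of 0.56 with A2ml1 and 0.08 with Dcpp1. The muscle gene Acta1 and the fat gene Fabp4 had one of -0.47. These are descriptions of 60 selected spots, not independent observations.

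Along the band the named gland genes with enough UMIs differed by less than 2-fold. Split at the median grid column of 70, a division chosen after seeing where the spots lay, 29 spots fell on the lower side and 31 on the higher. Of 2843 genes with at least 100 UMIs over both sides 37 differed at least 2-fold (1.30%), and of 22 named gland genes with as many UMIs 0 did, which at that share says nothing particular about them. Their log2 ratios, higher over lower columns, ran from -0.44 for Krt23 to 0.55 for Muc19, which went from 313 CPM (280 to 349) to 458 (413 to 507). Lpo went from 964 (905 to 1026) to 815 (754 to 879). For each of the pair the counting intervals of the sides did not overlap. The variance over spots was 5.19 times that of counting for Muc19 and 4.81 times for Lpo. The intervals are thus too narrow to set the sides apart.

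The 8 genes furthest apart on each side were as follows. Myoz1, Myh8, Tnni2, Tnnc2, Pgam2, Ckm, Actn2 and Mylpf, all of skeletal muscle, were higher at the higher columns by log2 ratios of 1.54 to 1.76, and the 8 at the lower columns were Cidea, Mcrip2, Cox7a1, Prkar2b, Gpd1, Coq8a, Cox8b and Thrsp, with log2 ratios of -1.59 to -1.13. Cidea belongs to thermogenic fat and was in the brown fat list. Cox7a1, a subunit of the respiratory chain, stood at 382 CPM (345 to 421) at the lower columns and 147 (122 to 176) at the higher.

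**Figure D5:**
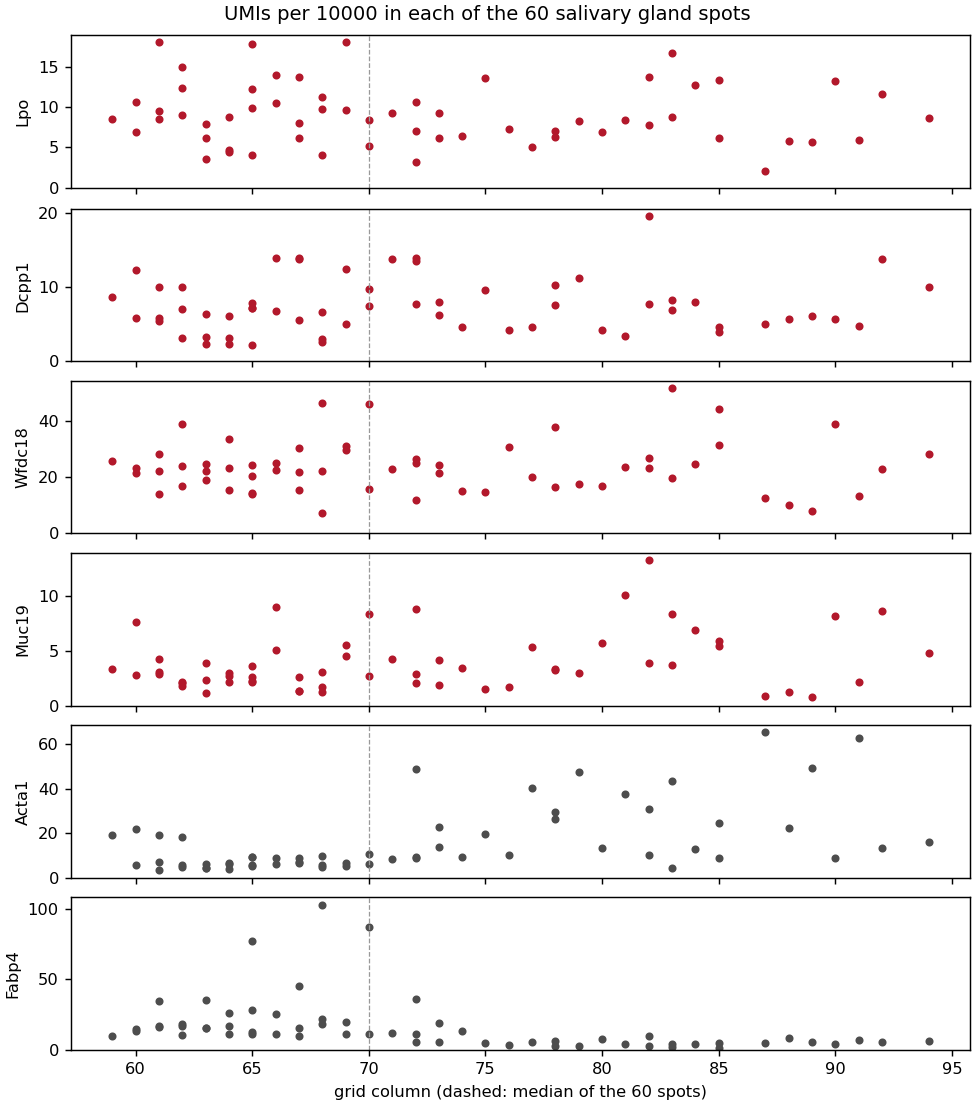
Level of 4 gland genes (red) and of the muscle gene Acta1 and the fat gene Fabp4 (grey) in each of the 60 salivary gland spots, in UMIs per 10000, by grid column; the dashed line is the median column, 70. Lpo, Dcpp1, Wfdc18 and Muc19 spread widely at every column, while high Acta1 lies mostly right of the line and high Fabp4 mostly left of it.

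Shared sequence was looked for in the first 250 bases of each RefSeq promoter. These bases can reach into the RefSeq gene interval, as at Dcpp1. RefSeq promoters were found for 22 of the 25 genes with the highest ratio. TATAA, on either strand, occurred in 8 of the 22 (36.4%) and in 23.5% of all 27025 promoters. The E-box CATATG occurred in 0 of the 22 and in 3.47% of all, and the E-box CAGCTG in 1 of the 22, Elf5, and in 12.8% of all. These are matches of letters in a fixed window.

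The other stages held some of the secretory genes and not others. In the whole E13.5 section of 98643829 kept UMIs, Smgc gave 2 UMIs, Dcpp3 3, and Bpifa2, Pip and Prol1 0 each. In the P0 esophagus sections of 10260709 and 7356008 kept UMIs, these 5 genes and Dcpp1 and Muc19 gave 0 UMIs, which allows 0.292 and 0.408 CPM (3 counts). Wfdc12, in contrast, stood at 31.5 and 55.7 CPM over the whole P0 sections. It stood at 1.90 over the whole E16.5 section and at 68.2 in the chosen salivary gland spots. In the P0 sections A2ml1 stood at 5.75 and 6.93 and Wfdc18 at 3.61 and 3.53. Genes that epithelia share were present throughout, Epcam at 20.7 CPM at E13.5, 24.5 at E16.5, and 268 and 299 in the P0 sections. Fxyd3 stood at 6.99 CPM at E13.5, 26.5 at E16.5, and 908 and 883 in the P0 sections. Tlx1 stood at 3.31 at E13.5, 1.96 at E16.5 and 0.487 and 0.952 at P0, and Kcnn4 at 5.75, 7.80, 0.390 and 2.99. The E13.5 and E16.5 sections are each 1 embryo section and may hold different organs, so the values are given side by side without a comparison.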

How the data were processed

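The deposited files hold unnormalized counts of UMIs for each of 32285 genes in each Visium spot, with the grid positions of the spots. The authors made them with Space Ranger 2.0.0, per the file headers, against mm10, per the submitters' processing notes. Settings of read assignment are not given in the sources used here, and the tissue images were not used here. Salivary gland spots were the 60 highest of the E16.5 spots with at least 500 UMIs by the score over 4 genes. Counts were summed over spots, divided by their total, multiplied by 1000000 and compared as log2 ratios with a pseudocount of 1, over genes with at least 200 UMIs in the kept spots and without the 4 genes. A gene at least 2-fold apart was counted. Grid steps are hexagonal neighbours. Intervals (95%) are exact Poisson for levels and Clopper-Pearson for shares, and a count of 0 was bounded at 3 counts. They cover counting error only. The medians of the kept spots were 29289 UMIs at E13.5, 26701.5 at E16.5, and 25465 and 25619 at P0.

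Named genes were the 25 highest and, with at least 2000 UMIs, the 5 lowest of those with at least 50 UMIs in the salivary gland spots, the 10 highest over neighbouring spots, the 8 highest and 8 lowest between touching groups, and genes of 25 fixed lists. The planned comparison of the largest touching groups met 57 and 2 spots. In it Tubb2a had the highest log2 ratio in the pair (2.04) and Sf3b3 the lowest, with 0 of its 212 UMIs there, and the split by grid column was added after seeing the positions. Spots, lists and rules were chosen with earlier results of these data known. Alternatives were other spot numbers, scores, filters, pseudocounts, thinning, per-spot means and TMM factors (edgeR 4.0.16). Scripts ran in Python 3.11.15 and were tested on simulated data. Gene positions and promoters came from RefSeq tables of GRCm38.p6, joined by symbol. Values of a few listed genes are not reported here.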

Additional observations from a re-analysis of the deposited data

Results flagged for a closer look

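Secretory genes of the E16.5 salivary gland were also counted in the sections that no comparison uses, above the 3 UMIs that a count of 0 allows. In the E13.5 section Dcpp1 gave 8 UMIs, Muc19 13, Lpo 37, Wfdc12 9 and Wfdc18 71. The 37 Lpo UMIs lay in 37 spots, and the highest spot held 2 UMIs of Muc19 and 5 of Wfdc18. In the P0 esophagus sections Lpo gave 5 UMIs in replicate 1, Wfdc18 gave 37 and 26 in replicates 1 and 2, and Wfdc12 gave 323 and 410. For Wfdc12 these are 31.5 and 55.7 CPM (UMIs per 1000000) over whole sections, against 1.90 over the whole E16.5 section. The 68.2 CPM of the E16.5 salivary gland spots is a level over chosen spots.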

How the results depend on the processing

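Of 79 counts of genes under alternatives, 64 stayed within 1.5 times the main count. With the 30 highest spots, genes at least 2-fold higher numbered 919 over neighbouring spots, 1353 over Krt13 and Krt4 spots and 2073 over lung spots (2065, 839 and 1329 with 60 spots). With the 100 highest spots, 501 were higher than in all other spots and 570 than in neighbouring ones (833 and 2065). A pseudocount of 5 gave 1845 genes lower than in all other spots, and 1025, 379 and 628 higher than in neighbouring, Krt13 and Krt4, and lung spots. At least 1000 UMIs per gene left 10423 genes, with 438 higher and 1873 lower than in all other spots, and 1206, 423 and 705 higher than in the other 3. With no filter on genes, 1282 were higher than in Krt13 and Krt4 spots. These settings change the spots summed, the weight of low counts or the genes tested; the cause beyond that was not tested. For 34 genes (the 25 highest, the 5 lowest and the rest of the 10 highest over neighbouring spots) under 15 alternatives, of 510 values 362 stayed within the counting interval, 148 left it in the same direction and 0 reversed, and the 25 highest genes kept log2 ratios of 3.04 to 7.89. Of 375 list counts 354 stayed within 1.5 times, 13 were lower and 8 higher. Scores without Smgc, Bpifa2, Dcpp3 or Pip kept 59, 58, 60 and 59 of the 60 spots. Genes under about 3 UMIs in the salivary gland spots (1.61 CPM) were not measurable at this depth. No paired analysis was possible because the result comes from no test, with 1 section at E16.5.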

Other observations

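The Dcpp genes had a place of their own outside the gland, noticed after their values were seen. Among spots 3 or more grid steps from the salivary gland, the one with the most Dcpp UMIs lay 10 steps away and held 15 of Dcpp1 and 31 of Dcpp3 beside 2 of Smgc and 4 of Bpifa2, with 855 UMIs of the muscle gene Acta1. The next 5 spots held 693 to 1846 UMIs of Tg, which encodes thyroglobulin. Over the 10 spots with at least 100 Tg UMIs, all 10 to 12 steps from the gland, Dcpp1 stood at 122 CPM (UMIs per 1000000) (88.1 to 164), Dcpp3 at 130 (95.3 to 174) and Smgc at 31.1 (15.5 to 55.7). In the 3357 other spots at 6 or more steps they stood at 1.12 (0.924 to 1.36), 1.58 (1.34 to 1.85) and 40.9 (39.6 to 42.1). Lpo gave 0 UMIs in the Tg spots.

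Transcripts of the gland were also found thinly over the rest of the section. The 4 genes that chose the salivary gland spots are included here as a description. Of 3367 spots at 6 or more grid steps, 2783 (82.7%) held a UMI of Smgc, Bpifa2, Dcpp3 or Pip. The level there, as a share of that in the salivary gland spots, was 0.262% for Smgc, 0.266% for Bpifa2, 0.238% for Pip, 0.214% for Dcpp1, 0.294% for Lpo, 0.291% for Prol1, 0.316% for Muc19 and 0.329% for Wfdc18. It was 0.802% for Bhlha15, 0.896% for Wfdc12, 0.940% for A2ml1, 1.39% for Aqp5 and, for Epcam, which other epithelia share, 4.73%. Far spots with under 5000 UMIs held 1.43 UMIs of the 4 genes on average and those with 30000 or more held 2.44, or 385 and 52.9 CPM.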
